A study of Rattus norvegicus with 32 samples.

Results

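The nucleus accumbens (NAc) of methamphetamine (METH) exposed rats was compared with that of saline-injected rats (Sal) over all genes. The members are 8 of the 32 RNA-seq samples of the series, the 4 titled NAc METH and the 4 titled NAc Sal, and the other 24 come from the subventricular zone (SVZ), the dentate gyrus (DG) and CA, the field of Ammon's horn. All rats were adult male Sprague-Dawley rats. The METH group received (+)-methamphetamine hydrochloride at 10 mg/kg into the peritoneum in 4 injections, 2 h apart, and the Sal group received saline at the same intervals. The tissue was punched from frozen slices a day after the last injection, so each sample can hold cells of neighbouring areas. Total RNA without ribosomal RNA was sequenced. The question was how gene expression in the NAc differed after this binge of METH.

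The deposited values are read counts per gene. The total count was 11094002 to 14501875 in the Sal samples and 11802864 to 14156910 in the METH samples. Levels are given as CPM, a gene's reads scaled by the upper-quartile size of its library, and 1 read was worth 0.0669 to 0.0951 CPM. The labels do not say that each sample is a separate animal, so the tests measure the spread between these samples, which may in part be technical.

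Several libraries stood apart before any group was compared. Across the 16 markers of striatal medium spiny neurons, the main cell type of the NAc, the summed level was 16335, 3911, 8504 and 4451 CPM in Sal 1 to 4 and 6679, 7932, 773 and 7748 CPM in METH 1 to 4. METH 3 was thus the lowest of all 8 samples, and Sal 1 the highest. In METH 3 the 4 tested hypothalamic markers summed to 1684 CPM, against 3.70 to 41.3 CPM in the other 7 samples. These included oxytocin (Oxt) at 898 CPM and vasopressin (Avp) at 680 CPM, both peptides of hypothalamic neurons. METH 4 had the highest sum of meningeal and perivascular fibroblast genes, at 1007 CPM against 103 to 256 CPM. Markers of pallial (cortical and hippocampal) glutamatergic neurons summed to 882 CPM in Sal 4, 648 CPM in METH 1 and 598 CPM in METH 4, against 25.7 to 155 CPM elsewhere. The labelled tissue was therefore in question for METH 3, and results are given with and without it. On the first principal component, which held 49.3% of the variance, METH 3 lay at 57.8 and the others between -38.6 and 24.9.

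**Figure D1:**
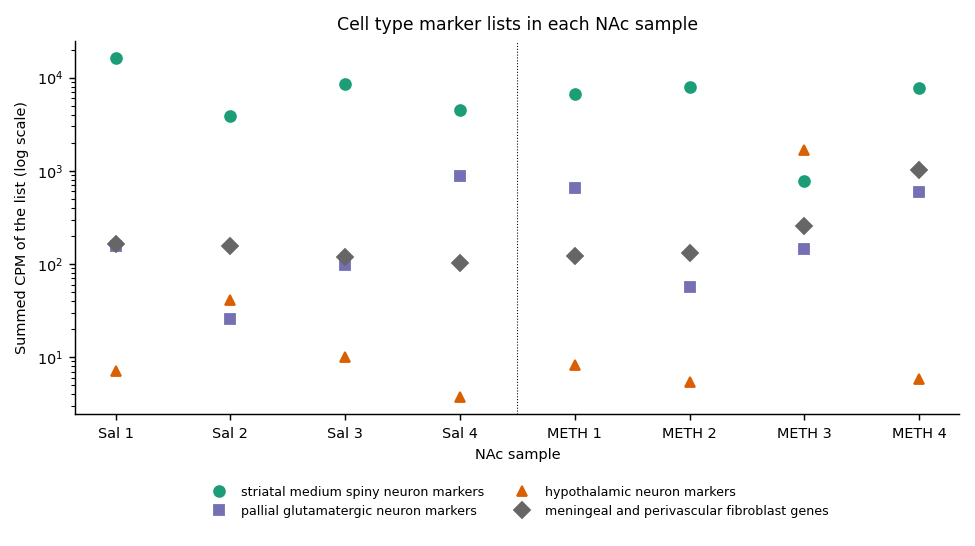
Summed CPM (log scale) of 4 lists of cell type markers in each of the 8 NAc samples, with Sal left and METH right of the dotted line. METH 3 combines the lowest medium spiny neuron sum (773 CPM) with the highest hypothalamic sum (1684 CPM), and METH 4 has the highest fibroblast sum (1007 CPM).

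The file headers hold 3 name strings for these samples, which are read here as sequencing runs. The methods give 2 sequencing batches for the RNA-seq, and how these match the strings is not stated. Sal 1 and 2 came from one run, METH 3 and 4 from another, and Sal 3 and 4 shared the last with METH 1 and 2, so that comparisons within 1 run rest on 2 samples per group. The headers also hold library numbers, and the numbers of Sal 1 and 2 and of METH 1 and 2 in the NAc carry the opposite treatment label in the DG (but not in the CA). The samples were grouped by their labels, and the groups were also compared with replicates 3 and 4 alone, which differ in sequencing run too.

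The NAc is the ventral part of the striatum and receives dopamine from the midbrain. METH enters dopamine terminals, reverses the dopamine transporter and releases dopamine, and in high repeated doses it damages these terminals, after which astrocytes and microglia react. Most NAc neurons are GABAergic medium spiny neurons, of a D1 type with the Drd1 receptor and the peptides substance P and dynorphin, and a D2 type with the Drd2 receptor and enkephalin. A minority are interneurons, among them the cholinergic ones and those with parvalbumin or somatostatin.

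No gene of 14771 tested was a differentially expressed gene (DEG), which needed a false discovery rate (FDR) under 0.01 and a fold change above 1.5. This is 0% of the genes tested with edgeR's quasi-likelihood test, and the smallest FDR was 0.999. At an unadjusted p under 0.05, 357 genes (2.42%) were higher in METH and 143 (0.968%) were lower. Chance alone gives such a p in about 1 in 20 genes, and both shares together were below that. The groups did not overlap for 339 genes, of which 231 (1.56%) were higher in all METH samples than in all Sal samples and 108 (0.731%) were lower. Of these, 54 higher and 19 lower genes had a mean of at least 1 CPM and differed by more than 1.5-fold. Groups of 4 samples also lie apart by chance in some genes, so a lack of overlap alone does not show a difference. DESeq2 called 3 DEGs (Pbxip1, Gfap and the unnamed gene AABR07052897.3), and edgeR with 4 RUVr factors, unwanted variation that is computed from what the groups leave unexplained, called 31 (11 higher, 20 lower).

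The excess of higher genes depended on the normalization. Over all genes, 8542 were higher and 6229 lower with upper-quartile sizes, and 7305 and 7466 with TMM sizes. The counts of higher list members below, which use upper-quartile sizes, are to be read beside these. Of the genes at an unadjusted p under 0.05, 71.4% were higher with upper-quartile sizes and 54.4% with TMM sizes (264 higher, 221 lower), and of the genes without overlap 68.1% and 47.9% (169 higher, 184 lower). All 169 higher genes under TMM were among the 231, and all 108 lower genes were among the 184. Without METH 3, 0% of 14857 genes were DEGs, and the smallest FDR was 0.0868 in edgeR's quasi-likelihood test. An unadjusted p under 0.05 was found for 411 higher (2.77%) and 307 lower (2.07%) genes in that comparison, and 517 (3.48%) higher and 378 (2.54%) lower genes had groups without overlap. Fewer samples leave more genes without overlap by construction. Leaving out Sal 3 gave the fewest higher genes at an unadjusted p under 0.05 (222), and METH 4 gave 227. Lower genes numbered 103 without METH 1, 257 without Sal 4 and 307 without METH 3.

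**Figure D2:**
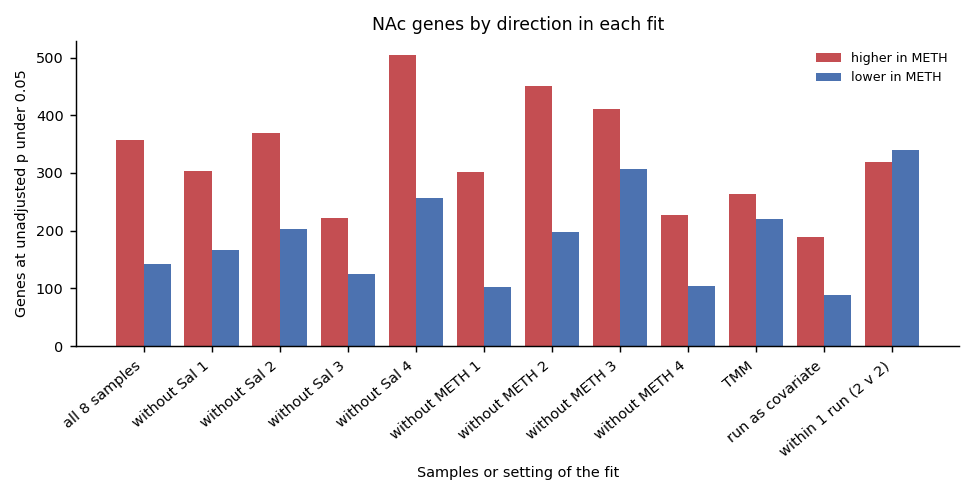
Number of genes at an unadjusted p under 0.05 that were higher (red) or lower (blue) in METH, for all 8 samples, without each sample, with TMM normalization, and with the sequencing run as a covariate or within 1 run. All 8 samples gave 357 higher and 143 lower genes, TMM gave 264 and 221, and the fit without METH 3 gave 411 and 307. Both run fits take the effect from Sal 3 and 4 against METH 1 and 2.

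Every gene named from here on had an FDR of at least 0.99 in edgeR's quasi-likelihood test on the 8 samples, so none passed the test and no gene is said to have risen or fallen. Log2 fold changes compare METH with Sal and are followed by their standard error (SE). All 37 named genes whose groups did not overlap had an unadjusted p under 0.05, and for other genes this is said where it holds. In tissue RNA, fewer cells of a type and less RNA per cell cannot be told apart.

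Astrocyte genes were among the clearest higher genes. Gfap (rn6, chr10:90990762-90999506), the intermediate filament protein that reactive astrocytes accumulate, was at 232, 285, 227 and 277 CPM in Sal 1 to 4 and 613, 364, 1084 and 995 CPM in METH 1 to 4. Each METH sample was above each Sal sample, and METH 2 was the closest to Sal. The log2 fold change was 1.58 (SE 0.32), and 1.36 (SE 0.29) without METH 3. Within the shared run it was 0.95. Slc1a3 (chr2:57860834-57935363), the glial glutamate transporter GLAST, was at 569 to 639 CPM in Sal and 762, 777, 866 and 783 CPM in METH. These groups did not overlap either, with a log2 fold change of 0.38 (SE 0.10) and 0.34 (SE 0.10) without METH 3. Cntf, a cytokine made by astrocytes in the adult brain, was at 2.96 to 4.55 CPM in Sal and 4.69 to 7.05 CPM in METH, with a log2 fold change of 0.61 (SE 0.21).

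Of 25 reactive astrocyte genes 19 were tested, of which 14 were higher and 5 lower, with a median log2 fold change of 0.41 beside 0.03 over all genes. At an unadjusted p under 0.05, 6 were higher (Gfap, Spp1, Timp1, Hspb1, Gpnmb and Cp) and 0 lower, beside 2.42% and 0.968% of all genes. Tissue RNA does not show which cells the reads of these members came from. Without METH 3 the median was 0.22, with 5 members higher at an unadjusted p under 0.05 (2.77% of all genes), and without METH 2 it was 0.72. Spp1 (osteopontin, a secreted matrix protein) was at 0.151, 4.68, 1.83 and 3.92 CPM in Sal and 9.12, 6.61, 6.98 and 11.7 CPM in METH, and the value in Sal 1 rests on 2 reads. Its log2 fold change was 1.69 (SE 0.64). Vim, another intermediate filament of reactive astrocytes, was at 15.7 to 44.3 CPM in Sal and at 23.3, 17.9, 76.3 and 80.9 CPM in METH, so that its groups overlapped. Homeostatic astrocyte genes, a list that includes Slc1a3, had 14 of 16 members higher but 1 at an unadjusted p under 0.05, beside 2.42% of all genes. The water channel Aqp4 was at 1237 CPM in METH 3 and at 499 to 609 CPM in the other samples, and its log2 fold change of 0.44 (SE 0.26) was 0.08 (SE 0.11) without METH 3. Aldh1l1, an enzyme used to mark all astrocytes, was likewise at 49.7 CPM in METH 3 and 17.0 to 23.8 CPM elsewhere. The groups thus overlapped for both of these general markers, but not for Gfap and Slc1a3.

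The promoter of Gfap is shown as the gene with the lowest p among the reactive astrocyte genes, with those of Mt3 and Cenpf, the lowest p of the antioxidant list and of all named lower genes, which are described further on. The sequences are from RefSeq (build GRCr8, 5′ to 3′ on the gene's strand) and run from 250 bases before to 50 bases after the start. Of the 50 named genes 37 had an entry. Capitals mark matches on either strand to the CCAAT box (CCAAT), the TATA box (TATAAA), the core of the metal response element (TGCGCNC) and the STAT site (TTCNNNGAA), which 37.5%, 14.2%, 14.1% and 8.87% of all 33469 promoters in the table hold.
Gfap, chr10:88361612-88361911, minus strand: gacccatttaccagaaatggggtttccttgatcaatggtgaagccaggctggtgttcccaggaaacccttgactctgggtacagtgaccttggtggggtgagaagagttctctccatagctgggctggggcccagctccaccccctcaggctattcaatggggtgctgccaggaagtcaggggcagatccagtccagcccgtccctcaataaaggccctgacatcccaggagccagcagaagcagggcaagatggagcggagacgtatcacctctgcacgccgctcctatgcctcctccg
Mt3, chr19:10856031-10856330, minus strand: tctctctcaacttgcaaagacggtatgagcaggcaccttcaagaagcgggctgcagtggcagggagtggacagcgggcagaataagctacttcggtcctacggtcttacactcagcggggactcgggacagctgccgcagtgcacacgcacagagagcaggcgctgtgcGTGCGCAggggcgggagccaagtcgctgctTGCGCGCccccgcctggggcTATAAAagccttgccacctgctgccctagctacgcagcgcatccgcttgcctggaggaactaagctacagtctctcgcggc
Cenpf, chr13:103760837-103761136, minus strand: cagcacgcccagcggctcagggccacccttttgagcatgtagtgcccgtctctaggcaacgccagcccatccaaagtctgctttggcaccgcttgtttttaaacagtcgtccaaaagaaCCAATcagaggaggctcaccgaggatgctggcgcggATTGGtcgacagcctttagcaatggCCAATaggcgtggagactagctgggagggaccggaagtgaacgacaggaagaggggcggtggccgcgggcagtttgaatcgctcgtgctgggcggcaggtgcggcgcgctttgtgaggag
The Gfap window held 0 matches. The Mt3 window held 1 TATA box that begins 31 bases before the start and 2 metal response element cores, 81 and 51 bases before it. The Cenpf window held 3 CCAAT boxes, 131, 95 and 70 bases before the start. A match is a run of letters and was not tested for binding.

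Genes of complement, which tags debris and synapses for removal by microglia, were higher in part. C1qb (chr5:155246447-155252003), a chain of the initiating component C1q, was at 22.1, 22.2, 21.3 and 19.2 CPM in Sal and 31.7, 31.7, 30.9 and 28.0 CPM in METH. The samples of each group lay close together and the groups were apart, with a log2 fold change of 0.53 (SE 0.09) and 0.52 (SE 0.10) without METH 3. Its neighbour C1qc, another C1q chain, was at 15.6 to 19.0 CPM in Sal and 20.1 to 25.3 CPM in METH, at 0.37 (SE 0.11). C1qa, the remaining chain, was at 31.8 to 39.2 CPM in Sal and 38.2 to 44.5 CPM in METH, and its groups overlapped (0.21, SE 0.09). The C1 inhibitor Serping1 was at 1.48 to 3.34 CPM in Sal and 3.71, 2.78, 11.8 and 9.51 CPM in METH, where METH 3 and METH 4 were highest. Of 10 complement genes tested 9 were higher, 4 of them at an unadjusted p under 0.05 (2.42% of all genes), with a median of 0.37. Without METH 3 the median was 0.17 with 3 such genes (2.77% of all genes).

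Microglia markers were less uniform than the C1q genes. Of 17 tested, 13 were higher and 4 lower, 4 were higher at an unadjusted p under 0.05 (2.42% of all genes), and the median was 0.19 (0.15 without METH 3). The 3 without overlap, beside 1.56% of all genes, were C1qb, C1qc and Fcgr2b. Fcgr2b, a low-affinity antibody receptor, was at 2.00 to 4.28 CPM in Sal and 4.44 to 6.27 CPM in METH (0.67, SE 0.25). Reads of Fcgr2b can be shared with close paralogs. Markers of resting microglia differed little: the fractalkine receptor Cx3cr1 was at 22.1 to 28.5 CPM in Sal and 21.5 to 29.9 CPM in METH (0.04, SE 0.13), and Tmem119 was at -0.08 (SE 0.23). Aif1, which encodes the microglial protein Iba1, was at 0.24 (SE 0.18).

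All 9 antigen presentation genes tested were higher, with a median log2 fold change of 0.48 (0.26 without METH 3, where 7 were higher) and 3 at an unadjusted p under 0.05, beside 2.42% of all genes. Cd74 (chr18:56071478-56080849), the invariant chain of MHC class II, was at 4.46, 4.55, 2.44 and 3.84 CPM in Sal and 5.23, 4.79, 12.3 and 20.4 CPM in METH. METH 1 and 2 were just above the highest Sal sample, and METH 3 and 4 were far above it. Its log2 fold change was 1.49 (SE 0.47), 0.96 (SE 0.38) without METH 4 and 0.66 within the shared run. B2m, the light chain of MHC class I, was at 88.4 to 122 CPM in Sal and 119 to 169 CPM in METH (0.48, SE 0.15). Of 17 interferon-stimulated genes all were higher, but 0 at an unadjusted p under 0.05, and without METH 3 they split into 8 higher and 9 lower. Pycard, the adaptor of inflammasomes, was the gene without overlap among the inflammatory cytokine and NF-kB genes, at 1.36 to 2.27 CPM in Sal and 2.35 to 3.73 CPM in METH. The 4 tested blood cell markers summed to 64.2 to 162 CPM in Sal and 133 to 168 CPM in METH, and their part in the immune genes was not tested.

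**Figure D3:**
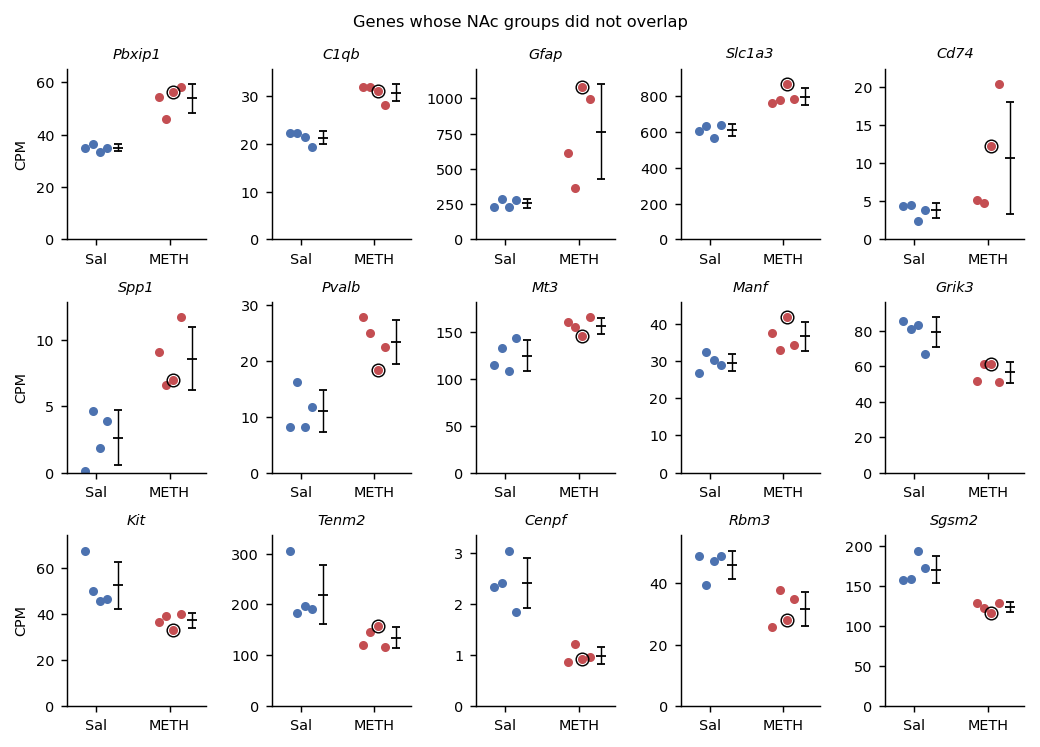
CPM in each sample (points, Sal blue and METH red, METH 3 ringed) with mean and SD (bars, n = 4 per group) for 15 genes whose groups did not overlap, on linear axes from 0. With TMM or DESeq2 sizes the groups of Mt3 overlapped. Gfap, Cd74 and Spp1 spread widely in METH, while C1qb lies at 19.2 to 22.2 CPM in Sal and 28.0 to 31.7 CPM in METH.

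The gene with the lowest p was Pbxip1 (chr2:188766535-188776439), which encodes a protein that binds PBX homeodomain factors and estrogen receptors. It was at 34.9, 36.5, 33.3 and 35.0 CPM in Sal and 54.4, 46.1, 56.4 and 58.3 CPM in METH, with a log2 fold change of 0.62 (SE 0.09) and 0.60 (SE 0.10) without METH 3. DESeq2 gave it an adjusted p of 0.00166. Other higher genes of the first 12 were Btbd17, at 10.7 to 13.7 CPM in Sal and 17.3 to 23.0 CPM in METH, and the receptor Fgfrl1, a member of the FGF receptor family without a kinase domain, at 7.85 to 10.5 and 12.7 to 16.1 CPM. The scaffold protein gene Slc9a3r1 (NHERF1) was at 24.3 to 31.1 CPM in Sal and 34.8 to 41.8 CPM in METH, and Tspan12, a tetraspanin of Wnt and norrin signalling, at 35.9 to 42.6 and 46.8 to 55.3 CPM. Fxyd5, a regulator of the sodium pump, the calcium-binding S100a4, the matrix protein gene Sned1 and the Ras GTPase-activating Rasal3 had log2 fold changes of 0.69, 1.30, 1.11 and 0.77. Sned1 was at 10.6 and 12.1 CPM in METH 1 and 2 and at 23.3 and 22.1 CPM in METH 3 and 4, and at 0.45 within the shared run. The last of the 12 was Pvalb, described with the interneurons.

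Genes of medium spiny neurons had lower means in METH, with METH 3 and Sal 1 at the extremes. All 16 general markers were lower in METH, their median log2 fold change was -0.57, and 0 were at an unadjusted p under 0.05. Without METH 3 the median was -0.19 with 14 lower, and without Sal 1 it was 0.03. Ppp1r1b (DARPP-32, the phosphatase inhibitor that relays dopamine signals) was at 2457, 479, 1101 and 517 CPM in Sal and 805, 1039, 42.3 and 1014 CPM in METH. Sal 1 was the highest and METH 3 the lowest sample, with the other METH samples inside the range of Sal. Drd1 (chr17:11101306-11103541) was at 384, 97.8, 229 and 140 CPM in Sal and 193, 230, 7.41 and 228 CPM in METH, and Drd2 (chr8:53678777-53743642) at 355, 84.3, 166 and 64.5 CPM and 114, 147, 13.8 and 128 CPM. The log2 fold changes were -0.37 (SE 0.82) for Drd1 and -0.73 (SE 0.72) for Drd2, and 0.03 (SE 0.41) and -0.37 (SE 0.53) without METH 3. Within the shared run both were positive (0.20 and 0.18). Tac1, the precursor of substance P, was at 35.4 to 203 CPM in Sal and at 108, 113, 19.3 and 118 CPM in METH. Of the 21 tested genes for dopamine receptors and cAMP signalling 19 were lower with 0 at an unadjusted p under 0.05, and 15 were lower without METH 3. The dopamine transporter gene Slc6a3, which is made in midbrain neurons, was not among the genes tested.

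Peptide genes differed among themselves, and 3 of them, chosen after their values were seen, are described first. Pdyn, the dynorphin precursor of D1-type neurons, was at 119, 82.9, 196 and 91.9 CPM in Sal and 224, 300, 60.7 and 267 CPM in METH. The 3 other METH samples were above all Sal samples, and the log2 fold change of 0.80 (SE 0.47) was 1.11 (SE 0.28) without METH 3, where the unadjusted p was under 0.05. Tac3, the neurokinin B precursor, was at 7.85, 20.5, 17.6 and 12.3 CPM in Sal and 37.2, 49.6, 20.1 and 30.0 CPM in METH, at 1.23 (SE 0.34) and 1.42 (SE 0.31) without METH 3, both at an unadjusted p under 0.05. Nts (neurotensin) was at 6.19 to 28.6 CPM in Sal and 37.9, 42.4, 22.1 and 30.1 CPM in METH (1.00, SE 0.40, unadjusted p under 0.05). The enkephalin precursor Penk was at -0.12 (SE 0.63) with METH 3 and 0.22 (SE 0.46) without it. Of 13 tested genes of other neuropeptides 11 were higher with a median of 0.97, which was 0.09 without METH 3, whose Oxt, Avp and Trh levels of 898, 680 and 80.4 CPM dominated the list. Of 8 opioid genes, 1 (Pdyn) was higher without overlap when METH 3 was left out, beside 3.48% of all genes.

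Of 15 tested genes of cholinergic enzymes and receptors, whose neurons shape dopamine release in the striatum, 11 were lower and 4 higher. Lower at an unadjusted p under 0.05 were 2 (Chat and Slc5a7), beside 0.968% of all genes, and 0 had groups without overlap. Chat, which makes acetylcholine, was at 19.3, 38.6, 27.3 and 34.4 CPM in Sal and 14.4, 16.2, 23.4 and 14.1 CPM in METH, at -0.81 (SE 0.24). The choline transporter Slc5a7 was at 48.3, 94.8, 63.2 and 73.5 CPM in Sal and 37.2, 47.7, 51.3 and 27.6 CPM in METH (-0.77, SE 0.25). Chat, Slc5a7 and the vesicular transporter Slc18a3 each had groups without overlap when METH 3 was left out, at -1.01 (SE 0.23), -0.90 (SE 0.26) and -0.89 (SE 0.27). In that comparison 2.54% of all genes were lower without overlap. Slc18a3 lies inside Chat, so reads of the pair cannot be told apart fully. Without METH 3, 4 of the 15 were lower at an unadjusted p under 0.05, beside 2.07% of all genes.

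A marker of a neighbouring cell type moved with these. Ngfr, the p75 receptor that marks cholinergic neurons of the basal forebrain next to the NAc, was at 1.28, 52.8, 18.5 and 37.6 CPM in Sal, at 2.95, 1.65 and 0.883 CPM in METH 1, 2 and 4, and in METH 3 between the levels of Sal 3 and Sal 4. It was thus high in 3 Sal samples and 1 METH sample, and low in Sal 1 and the other METH samples. Sal 1 also had the lowest Chat and Slc5a7 of the Sal samples. Its part in the levels of the cholinergic genes was not tested.

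Other interneuron genes did not share a direction. Pvalb (chr7:119429019-119441487), the calcium buffer of fast-spiking interneurons, was at 8.16, 16.1, 8.20 and 11.7 CPM in Sal and 27.7, 25.0, 18.4 and 22.4 CPM in METH. The log2 fold change was 1.08 (SE 0.24), 1.17 (SE 0.24) without METH 3 and 1.40 within the shared run. Sst (somatostatin) was at 49.4 to 80.5 CPM in Sal and 116, 113, 45.1 and 79.9 CPM in METH, at 0.46 (SE 0.29) and 0.68 (SE 0.18) without METH 3, the latter at an unadjusted p under 0.05. Kit, a receptor kinase of interneurons, was lower, at 67.5, 50.1, 45.6 and 46.5 CPM in Sal and 32.8 to 39.9 CPM in METH (-0.50, SE 0.14). Of 12 interneuron genes tested 7 were higher and 5 lower. The pallial markers, from tissue that also holds Pvalb interneurons, were high in METH 1 and 4 and in Sal 4, and their part in the Pvalb levels was not tested.

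Receptor and channel lists had few or no members at an unadjusted p under 0.05. Of 23 glutamate receptor genes 2 were lower at this cut, beside 0.968% of all genes. Grik3 (chr5:143500441-143715546), a kainate receptor subunit, was at 85.3, 80.9, 83.3 and 67.0 CPM in Sal and 51.8, 61.3, 61.4 and 51.2 CPM in METH, at -0.49 (SE 0.11) and -0.53 (SE 0.11) without METH 3. In the 12 serotonin receptor genes 0 were at an unadjusted p under 0.05. Without METH 3 the receptors Htr4 and Htr2a were higher at this cut, at 0.81 (SE 0.23) and 0.61 (SE 0.19), beside 2.77% of all genes. The lists of 14 GABA-A receptor subunits, 20 voltage-gated sodium and calcium channels, 21 potassium channel genes and 19 synaptic vesicle and SNARE genes each had 0 members at an unadjusted p under 0.05.

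**Figure D4:**
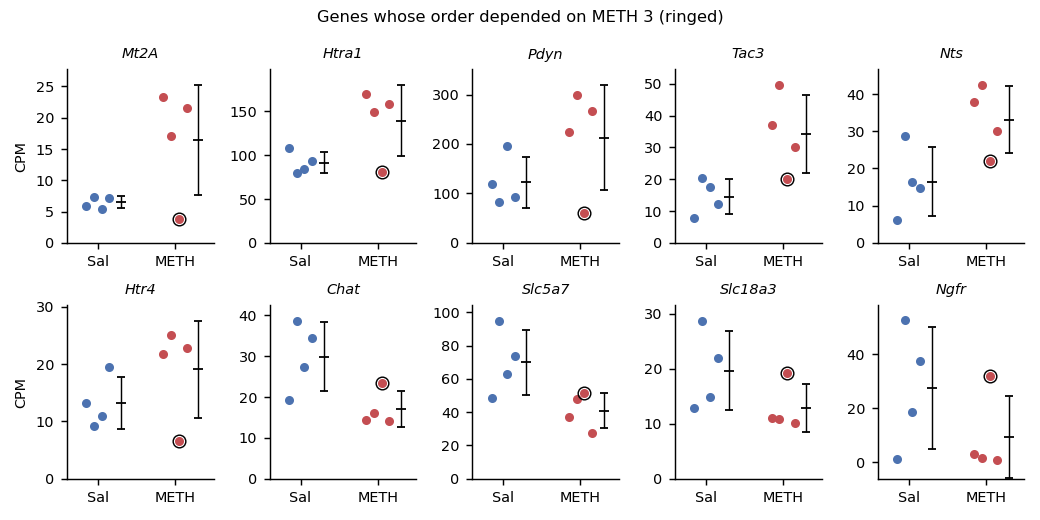
CPM in each sample (points, Sal blue and METH red, METH 3 ringed) with mean and SD (bars, n = 4 per group) for 10 genes, on linear axes. Pdyn, Tac3, Nts, Htr4, Mt2A and Htra1 are higher in the METH samples other than METH 3, and Ngfr is low in METH 1, 2 and 4 and in Sal 1.

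Of the immediate early genes, which neurons switch on within minutes of activity, more were lower than higher a day after METH. Many SEs are wide, so this does not show that the genes did not differ. Of 25 tested 9 were higher and 16 lower, with a median of -0.22 (-0.08 without METH 3 and 0.06 without Sal 1). The Egr genes encode zinc finger factors that follow dopamine and calcium signals. Egr1 was at 280, 58.9, 103 and 114 CPM in Sal and 184, 105, 45.8 and 136 CPM in METH (-0.24, SE 0.52), and Egr3 at 124, 42.4, 72.6 and 56.2 CPM and 55.8, 55.3, 6.98 and 57.8 CPM (-0.75, SE 0.58). Egr2 and Egr4 were at -1.08 (SE 0.69) and -0.44 (SE 0.54). In each of the 4 Egr genes Sal 1 was the highest and METH 3 the lowest sample, as in the medium spiny neuron sums, and all groups overlapped. Fos was at 2.88 to 9.17 CPM in Sal and 3.39 to 10.2 CPM in METH (0.32, SE 0.40), and Fosb at 5.15 to 12.0 and 4.30 to 8.65 CPM (-0.34, SE 0.29). At an unadjusted p under 0.05 Nr4a2 (-1.63, SE 0.63) and Npas4 (-1.03, SE 0.43) were lower, beside 0.968% of all genes. Both had the highest level in Sal 4. The pallial marker sum was 882 CPM in Sal 4, 648 CPM in METH 1 and 598 CPM in METH 4, and its part in these levels was not tested. Maff, a small Maf factor, was higher without overlap, at 0.611 to 1.43 CPM in Sal and 1.48 to 1.83 CPM in METH (0.72, SE 0.27). With TMM or DESeq2 sizes its groups overlapped, and its lowest Sal value was 7 reads.

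Of the 12 ERK feedback genes, whose products damp growth factor signals, 10 were lower but 0 of these at an unadjusted p under 0.05. Etv4, an ETS factor downstream of ERK, was higher at 9.79, 7.05, 5.01 and 9.23 CPM in METH against 4.28 to 5.62 CPM in Sal (0.73, SE 0.23, unadjusted p under 0.05). It was at 0.89 (SE 0.18) without METH 3, with groups that did not overlap.

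For 4 other genes named by rule the groups overlapped, and where the SE is wide this does not show that they did not differ. Nrn1 (neuritin, a plasticity protein of excitatory neurons) was at 6.65, 8.69, 8.90 and 44.4 CPM in Sal and 54.8, 5.31, 30.5 and 43.4 CPM in METH. It was highest in METH 1, Sal 4 and METH 4, the samples with the highest pallial sums, a list that includes it, and its log2 fold change was 0.96 (SE 0.78). The transcription factor gene Prdm8 was at 0.680, 0.936, 1.92 and 12.4 CPM in Sal, at 1.65 CPM in METH 2 and at 9.80 to 12.0 CPM in the other METH samples. Its log2 fold change was 1.11 (SE 0.92), from 0.76 to 2.88 with 1 sample left out and -0.21 within the shared run. Dach1, a transcriptional repressor, was at 105 CPM in Sal 1 and 8.94 to 36.1 CPM in the other 7 samples (-1.31, SE 0.66), and at -0.38 without Sal 1. Hdac5, a class IIa histone deacetylase, was at 112 to 130 CPM in Sal and 127 to 149 CPM in METH (0.14, SE 0.09).

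Genes of the meninges and perivascular fibroblasts had higher means in METH, with METH 4 far above the rest. Their summed level was 103 to 165 CPM in Sal and 123, 130, 256 and 1007 CPM in METH 1 to 4. METH 1 and 2 thus lay within the range of Sal. All 10 tested were higher, 6 at an unadjusted p under 0.05 (2.42% of all genes), with a median of 1.29. Without METH 4 the median was 0.37 with 8 higher and 3 at an unadjusted p under 0.05, where 227 of 14900 genes (1.52%) were. Fmod, a collagen-binding proteoglycan, was at 1.34 to 1.75 CPM in Sal and 2.85, 1.83, 3.31 and 22.6 CPM in METH. Aldh1a2, a retinoic acid enzyme of the meninges, was at 1.22 to 2.01 CPM in Sal and 3.23, 2.44, 4.80 and 23.6 CPM in METH. Dcn (decorin) was at 3.47 to 4.48 CPM in Sal and 4.66, 4.61, 7.19 and 9.10 CPM in METH. In each of these 3 genes every METH sample was above every Sal sample, METH 4 being highest. They were named for this lack of overlap, which 1.56% of all genes had in this direction. Without METH 4 their log2 fold changes were 0.80 (SE 0.27), 1.12 (SE 0.31) and 0.52 (SE 0.22). The abundant Ptgds (prostaglandin D synthase) was at 62.8 to 120 CPM in Sal and at 76.2, 90.3, 176 and 759 CPM in METH. Endothelial genes had 11 of 12 members higher with a median of 0.17 and 0 at an unadjusted p under 0.05.

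Stress genes showed single members. Mt2A, a metallothionein that binds zinc and is induced by glucocorticoids and oxidative stress, was at 5.89, 7.36, 5.41 and 7.24 CPM in Sal and 23.3, 17.1, 3.88 and 21.5 CPM in METH. METH 3 was below all Sal samples and the other METH samples were above them, so the log2 fold change of 1.34 (SE 0.46) became 1.67 (SE 0.16) without METH 3, at an unadjusted p under 0.05 in both. This was the lowest p of that comparison (edgeR's quasi-likelihood test, FDR = 0.0868), and within the shared run the log2 fold change was 1.66. Mt3, the brain metallothionein whose promoter is shown above, was at 115, 133, 109 and 144 CPM in Sal and 161, 156, 146 and 166 CPM in METH (0.33, SE 0.11). With TMM or DESeq2 sizes its groups overlapped. Reads of the metallothioneins can be shared between paralogs, and Mt1 was at 0.17. Of 19 antioxidant genes 2 (Mt2A and Mt3) were higher at an unadjusted p under 0.05, beside 2.42% of all genes. Among the unfolded protein response genes 19 of 20 were higher with a median of 0.12, but 12 without METH 3. Manf, a secreted protein of the endoplasmic reticulum with neurotrophic effects, was at 26.8 to 32.4 CPM in Sal and 32.9 to 41.7 CPM in METH (0.31, SE 0.10), while the chaperone Hspa5 was at 0.01 (SE 0.14).

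Rbm3 (chrX:15098904-15102340), a cold-inducible RNA-binding protein, was at 49.1, 39.4, 47.3 and 48.8 CPM in Sal and 25.8, 37.8, 28.1 and 34.8 CPM in METH, at -0.54 (SE 0.14) and -0.49 (SE 0.15) without METH 3. Cirbp, which encodes another such protein, is in none of the lists and was named after its value was seen. It was at 53.2 to 70.0 CPM in Sal and 42.1, 48.6, 55.7 and 41.4 CPM in METH (-0.41, SE 0.13, unadjusted p under 0.05). METH 3 lay within the range of Sal, and without it the groups did not overlap. Over the other regions Rbm3 was at -0.36 (SE 0.13) and Cirbp at -0.23 (SE 0.09). Clock genes gave 0 of 17 members at an unadjusted p under 0.05, and glucocorticoid receptors and targets 0 of 14.

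The other lower genes of the first 12 differed in function. Cenpf (chr13:108132499-108178609), a kinetochore protein of dividing cells, was at 2.34, 2.41, 3.05 and 1.85 CPM in Sal and 0.855, 1.22, 0.917 and 0.951 CPM in METH. It had the lowest p among lower genes (-1.28, SE 0.23), at -1.25 (SE 0.27) without METH 3. The replication enzyme gene Top2a was at 3.93, 3.88, 4.28 and 1.33 CPM in Sal and 0.665, 1.57, 1.13 and 0.815 CPM in METH (-1.67, SE 0.41). However, of 13 cell cycle genes tested it was the 1 at an unadjusted p under 0.05, beside 0.968% of all genes lower. Mki67 was at -0.22 (SE 0.24). Sgsm2, a regulator of Rab proteins, was at 157, 158, 194 and 172 CPM in Sal and 129, 122, 116 and 128 CPM in METH (-0.46, SE 0.10). Tenm2, a teneurin that joins synapses, was at 306 CPM in Sal 1, 182 to 197 CPM in the other Sal samples and 115 to 157 CPM in METH (-0.71, SE 0.19). The kinase gene Matk was at 77.0 to 104 CPM in Sal and 69.5 to 73.3 CPM in METH (-0.38, SE 0.10), and Papss2, an enzyme of sulfate activation, at 14.4 to 20.1 and 9.85 to 14.3 CPM (-0.61, SE 0.17). Cfap161, Olfm4 and Mogat2 were low genes with log2 fold changes of -2.49, -1.92 and -1.16, at 0.204 to 0.951 CPM in METH, where the smallest value (Olfm4 in METH 4) was 3 reads.

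Myelin and oligodendrocyte genes turned with METH 3. The 14 myelin genes split into 7 higher and 7 lower with 0 at an unadjusted p under 0.05, and without METH 3 all 14 were lower with a median of -0.28. Their summed level was 4654 to 13158 CPM in Sal and 6866 to 14307 CPM in METH, so the Sal samples covered most of the range. All 13 mitochondrially encoded genes were higher with a median of 0.33, which was -0.04 without METH 1, the sample with the highest sum (87638 CPM against 36865 to 69807 CPM).

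**Figure D5:**
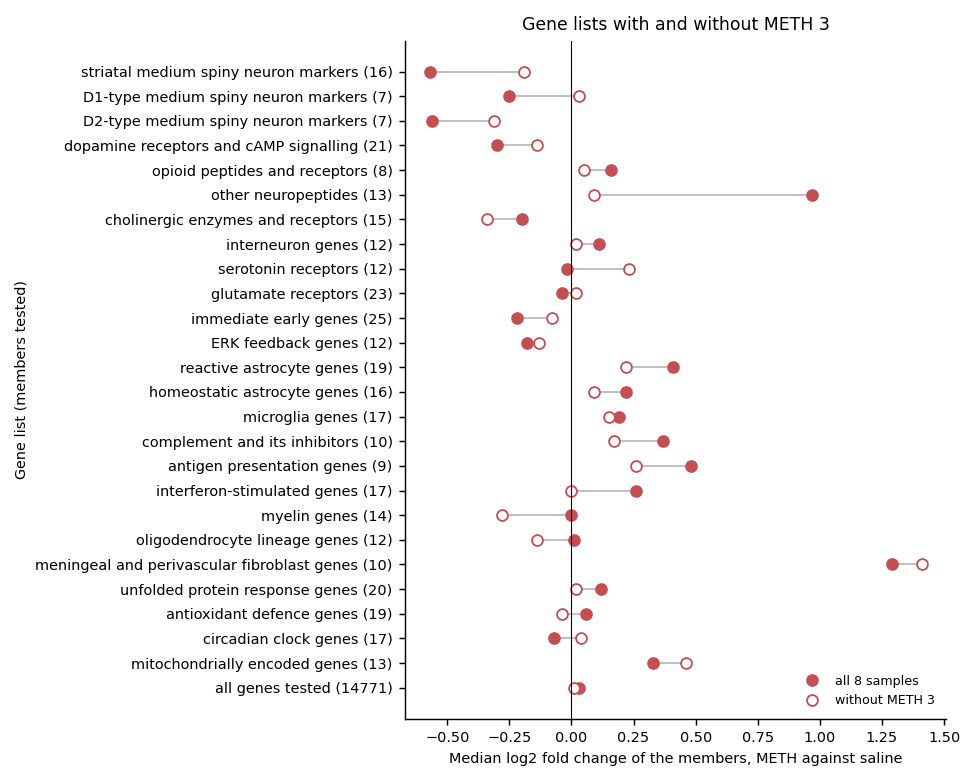
Median log2 fold change of METH against saline over the tested members of 25 gene lists and over all genes, with all 8 samples (filled) and without METH 3 (open). The medium spiny neuron markers move from -0.57 to -0.19 and other neuropeptides from 0.97 to 0.09, while the fibroblast genes stay above 1.2 since METH 4 is in both.

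The NAc effect was set against the mean effect in the DG, CA and SVZ in a fit of all 32 samples. The fit takes the samples as independent, although the regions were taken from the same rats and the NAc, DG and CA share library numbers, of which 4 carry opposite labels in the DG. Of 16122 genes tested, 0 differed at an FDR under 0.01 and 262 (1.63%) at an unadjusted p under 0.05. C1qb was at 0.53 in the NAc and 0.16 (SE 0.06) over the other regions, a difference of 0.35 (SE 0.12). Gfap was at 0.62 (SE 0.19) over the other regions, a difference of 0.94 (SE 0.38). Etv4 was at 0.05 (SE 0.14) over the other regions, a difference of 0.67 (SE 0.28). For Spp1 the difference was 1.85 (SE 0.83), for Aldh1a2 2.44 (SE 0.93), for Fxyd5 0.50 (SE 0.24) and for Olfm4 -1.69 (SE 0.79). These differences, with those of C1qb, Gfap and Etv4, were at an unadjusted p under 0.05. The genes were named for, or chosen after seeing, their values in these same NAc samples, so a larger NAc effect was favoured by the choice. Pbxip1 (0.28, SE 0.34), Slc1a3 (0.21, SE 0.19), Pvalb (1.10, SE 1.05) and Cenpf (-1.12, SE 1.05) did not differ from the other regions beyond the spread. Intervals for Pvalb and Cenpf are wide, and such values do not show that the regions responded alike. The median of the medium spiny neuron markers was -0.66 over the other regions. These are markers of striatal neurons, and which cells gave their reads in the other regions was not tested.

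With replicates 3 and 4 alone, the samples whose library numbers carry 1 treatment label in all of NAc, DG and CA, genes without overlap keep their direction by their choice, so only the sizes are given. Gfap was at 2.04, Pbxip1 at 0.74, C1qb at 0.53, Grik3 at -0.42 and Cenpf at -1.38. Sst, Htr4 and Htr2a, which were higher without METH 3, were at -0.22, -0.06 and -0.31. In this comparison of 2 with 2 samples the groups were also sequenced in different runs, so treatment and run cannot be told apart. METH 3, whose labelled tissue is in question, is 1 of the 2 METH samples, so these sizes are no check of the labels.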

How the data were processed

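Total RNA of NAc punches, freed of ribosomal RNA, was sequenced in 4 METH and 4 Sal samples. The deposited files hold raw read counts per gene, which the authors made with FastQC 0.11.4, cutadapt 2.7, STAR 2.5.2b and featureCounts on rn6. Per the file headers, featureCounts 1.6.3 counted by Ensembl gene name and without strand, so overlapping and antisense genes share reads, and the methods name a UCSC annotation instead. The files list 28914 gene names, of which 171 lie on several chromosomes.

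Samples were grouped by their titles. Counts were filtered with filterByExpr, scaled by upper quartile and tested with edgeR 4.0.16 (quasi-likelihood test, Benjamini-Hochberg adjustment). The DEG rule was FDR under 0.01 with a fold change above 1.5, and the fold change of 2 in the methods was an alternative. Groups were called without overlap on CPM. Alternatives were TMM, DESeq2 1.42.0, other filters and tests, covariates (sequencing run, RNA integrity number, medium spiny neuron level, replicate number, RUVr factors) and leaving out each sample. Comparisons within the shared run and with replicates 3 and 4 only were added after seeing the data. The quasi-likelihood fit was also run on simulated counts. These had the same spread for every gene and no outlying sample, unlike the data, so they are no check of the fit under those conditions.

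Named genes were the 12 higher and 12 lower genes with the lowest p among those with a symbol, a mean of at least 1 CPM and groups without overlap, up to 4 such genes of each of 51 lists, and 14 genes named for the NAc or several regions. Other genes of the lists, such as Mt2A, Pdyn, Chat, Htr4 and Etv4, and Cirbp, which is in none, were chosen after their values were seen. The members and lists were chosen with earlier results of these data known. Of 746 list genes 666 were tested, 1 was matched by a synonym, 13 were not analysed here and the rest did not pass the filter. Promoters were RefSeq windows (GRCr8), unlike the rn6 gene coordinates.

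Total counts of 11094002 to 14501875 per sample left a median SE of 0.17 on the log2 scale, with a common biological coefficient of variation of 0.247. Pairs of samples of 1 group differed by more than sampling noise, with a chi-square per gene of 20.1 to 69.9 in Sal and 23.3 to 99.5 in METH. The replicate numbers did not pair the samples. Some genes the naming rule chose are not reported here.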

Additional observations from a re-analysis of the deposited data

Results flagged for a closer look

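In groups of 4, a sample was looked at again where its gap to the nearest other sample took more of the group's range than Dixon's 95% critical value. Chance gives this in about 1 in 20 groups, and 31 of the 202 groups tested (named genes and list sums in each treatment) had it, 10 for single genes and 21 for sums.

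METH 3 was the sample most often apart. It was low in Drd1 (7.41 CPM, others 193 to 230), Tac1 (19.3 CPM), Egr3 (6.98 CPM) and Egr4 (3.53 CPM), and in the sums of D2-type markers (160 CPM), opioid genes (343 CPM), clock genes (1176 CPM), glutamate receptors (2473 CPM) and axon guidance genes (1888 CPM, others 2673 to 2713). It was high in the sums of hypothalamic markers (1684 CPM), other neuropeptides (1874 CPM), thalamic and subcortical markers (230 CPM), myelin genes (14307 CPM), ependymal markers (75.6 CPM) and monoamine genes (226 CPM).

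METH 4 was high in Aldh1a2 (23.6 CPM), Fmod (22.6 CPM) and the fibroblast sum (1007 CPM), and METH 1 in the blood cell sum (168 CPM, others 133 to 138).

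Among the Sal samples, Sal 1 was high in Tenm2 (306 CPM), Egr2 (19.0 CPM) and the sums of endocannabinoid genes (1377 CPM) and glucocorticoid genes (965 CPM), and low in the 2 tested choroid plexus markers (1.66 CPM). Sal 4 was high in Nrn1 (44.4 CPM), Prdm8 (12.4 CPM) and the pallial sum (882 CPM). Sal 2 was high in the sums of hypothalamic markers (41.3 CPM) and antioxidant genes (1106 CPM) and low in other neuropeptides (212 CPM), and Sal 3 was low in cholesterol synthesis genes (1408 CPM, others 1750 to 1789).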

How the results depend on the processing

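No gene was a DEG in any setting but DESeq2 (3) and 4 RUVr factors (31, with few residual degrees of freedom). Higher genes at an unadjusted p under 0.05 numbered 357, against 219 with the replicate block, 189 with the sequencing run, 1054 with the RNA integrity number and 665, 1142 and 1644 with 1, 2 and 4 RUVr factors. Lower genes numbered 143, against 221 (TMM), 295 (DESeq2), 294 (no filter), 76 (replicate block), 89 (run), 732 (RNA integrity number), 473 (medium spiny neuron level), 622, 894 and 1270 (RUVr) and 340 (within the shared run). Leaving out 1 sample gave 222 to 504 higher and 103 to 307 lower genes. Genes without overlap numbered 231 higher and 108 lower. The lower count was 184 (TMM), 202 (DESeq2) and 197 (no filter), and leaving out 1 sample gave 362 to 590 higher and 172 to 378 lower. Replicates 3 and 4 alone gave 2769 and 2151, and the shared run 2480 and 2253, since fewer samples overlap less by construction. The causes of the other shifts were not tested. Same-numbered samples deviated together by -0.29 to 0.29, so the numbers were not read as pairs.

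Named genes without overlap keep their direction in subsets of the samples by their choice, so this is no sign of stability. With the run as covariate and within the shared run the signs turned for Drd1 (0.20, 0.20), Drd2 (0.18, 0.18), Tac1 (0.25, 0.24), Egr1 (0.41, 0.41), Egr2 (0.07, 0.06), Egr4 (0.05, 0.05), Fos (-0.13, -0.14) and Prdm8 (-0.19, -0.21), as they did with the medium spiny neuron level for Tac1 (0.28) and Egr1 (0.23). Both run fits take the treatment effect from Sal 3 and 4 against METH 1 and 2 alone, since each other run holds 1 treatment. They thus leave Sal 1 and METH 3 out of the effect and are not separate checks. Leaving out 1 sample gave -0.61 to 0.08 for Drd1, -0.54 to 0.27 for Tac1 and -0.55 to 0.35 for Egr1, the upper ends without Sal 1. Of the 51 list medians 29 changed sign in at least 1 setting, 14 of them without METH 3 and 4 with TMM. The difference from the other regions gave 0 genes at an FDR under 0.01 in each setting run, with 200 to 470 at an unadjusted p under 0.05, the most without METH 3.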

Other observations

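Some lists outside the comparisons above held single genes with differing levels, named after their values were seen. Among 27 axon guidance genes, 2 semaphorins were higher at an unadjusted p under 0.05, beside 2.42% of all genes. Sema3e was at 50.7, 44.9, 54.6 and 32.2 CPM in Sal and 81.1, 83.8, 42.2 and 81.5 CPM in METH, so METH 3 alone lay within the range of Sal. Sema3a was at 10.1 to 29.5 CPM in Sal and up to 43.6 CPM in METH, and its groups overlapped. Among 23 DNA methylation and chromatin genes, the histone demethylase gene Kdm6b was at 34.8 to 41.9 CPM in Sal and 41.0 to 55.8 CPM in METH (0.30, SE 0.11), and METH 2 alone lay within the range of Sal.

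The mineralocorticoid receptor gene Nr3c2 was at 32.7 to 40.5 CPM in Sal and at 53.7, 58.7, 28.1 and 49.0 CPM in METH 1 to 4. Its log2 fold change was 0.35 (SE 0.21), and 0.54 (SE 0.11) without METH 3. With replicates 3 and 4 alone, which include METH 3, it was -0.06. The small heat shock protein genes Hspb1 and Hspb8 were highest in METH 3, at 12.6 and 28.1 CPM. The cannabinoid receptor gene Cnr1 was at 908 CPM in Sal 1 and 88.1 to 199 CPM in the other 7 samples, and its log2 fold change of -1.40 (SE 0.62) was -0.10 with replicates 3 and 4 alone.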
